A study of Mus musculus with 8 samples.

Results

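WFS1 peaks at potassium channel genes were examined in C2C12 cells, a mouse myoblast line. The genes were all autosomal protein-coding genes of the GRCm38 annotation (GENCODE mouse release 21) whose symbol starts with Kcn, which gave 92 of 20807 autosomal protein-coding genes. Kcnd1 and Kcne1l, on chromosome X, were left out. The rule reads the symbol only, but the family was picked for description with earlier results of these data known. ChIP-seq with a WFS1 antibody was done in wildtype, proliferating cells after crosslinking with DSG and formaldehyde. A library was made after 30 sonication cycles and another from a part of the same immunoprecipitation after 36 cycles, so there was 1 library per condition, they were not replicates, and no test could be made. The other 6 libraries of the series, which are the inputs and the libraries of WFS1 knockout cells expressing FlagTag WFS1, were not used here. Peaks overlapping between the lists were joined, as the study did, and are called joined peaks. The lists give positions without a height, score or read count, so the depth is unknown and a missing peak does not show that a site was unbound. Intervals in parentheses after a share are 95% Wilson intervals, which cover counting error over genes or peaks only. With no expression values in the files, neither the myoblast identity of the cells nor the expression of any channel was checked.

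Potassium channels let potassium leave or enter cells along its gradient and thereby set the resting potential and end action potentials. The voltage-gated family, with subfamilies Kcna to Kcnd, Kcnh and Kcnq and the silent subunits of Kcnf, Kcng, Kcns and Kcnv, opens on depolarization. Inward rectifiers (Kcnj) and tandem-pore channels (Kcnk) carry resting currents, calcium- or sodium-activated channels (Kcnma, Kcnn, Kcnt, Kcnu) respond to ions inside the cell, and auxiliary proteins (Kcnab, Kcne, Kcnip, Kcnmb, Kcnrg) modify the pores. Most members are best known from neurons and heart. Several act in muscle, where Kcnj2 and Kcnj12 encode inward rectifiers that stabilize the resting potential.

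The share of potassium channel genes with a WFS1 peak was below that of all genes at each position examined. In the gene, its interval included the value of all genes. Within 1 kb of the transcription start site, 2 of 92 genes had a joined peak (2.17%, 0.598 to 7.58), whereas 13.8% of all autosomal protein-coding genes did. Joined peaks overlapped 18 of the 92 genes (19.6%, 12.7 to 28.8), against a background of 25.6%. Within 50 kb of the start site, measured from the nearest edge of a peak, 35 of the 92 genes had a peak (38.0%, 28.8 to 48.3), against 56.1%. No peak lay in the gene or within 50 kb of the start site for 48 of the 92 genes, compared with 8647 of the 20807 autosomal protein-coding genes.

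The potassium channel genes were longer than protein-coding genes in general, with a median length of 32.2 kb compared with 17.6 kb, and longer genes have more room for peaks. Therefore, the shares of all genes in 10 length bins were averaged with the Kcn genes' numbers per bin as weights. Protein-coding genes of like length then had a peak at the start site in 14.7%, in the gene in 33.3% and within 50 kb in 55.7%. The ratio of the Kcn share to these values was 0.148 (0.0408 to 0.518) at the start site, 0.588 (0.383 to 0.866) in the gene and 0.683 (0.517 to 0.866) within 50 kb. Counted as peaks rather than genes, the Kcn genes held 31 peaks, whereas genes with the same lengths would hold 85.1, a ratio of 0.364. The density in the Kcn genes was 2.99 peaks per Mb over 10.4 Mb, compared with 11.4 peaks per Mb in all autosomal protein-coding genes. Unlike the ratio of 0.364, these densities were not weighted to the lengths of the Kcn genes.

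**Figure D1:**
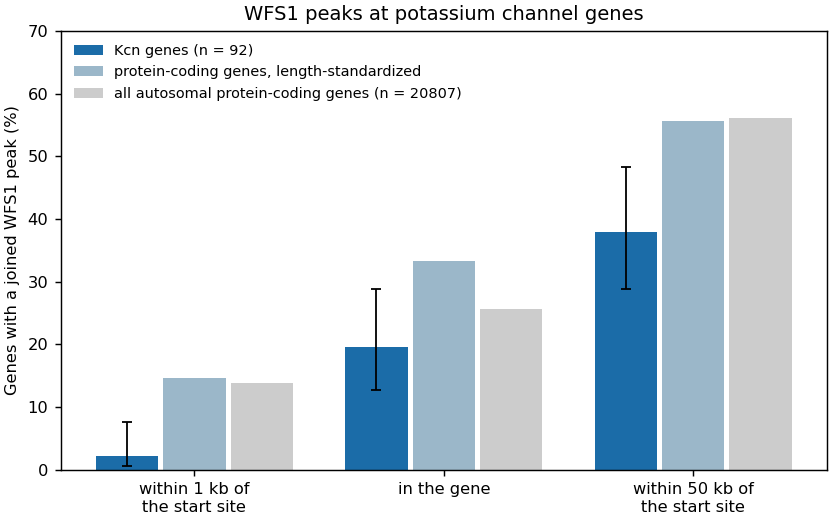
Share of genes with a joined WFS1 peak (y axis, percent) within 1 kb of the start site, in the gene and within 50 kb of the start site. Dark bars are the 92 Kcn genes with 95% Wilson intervals, light blue bars protein-coding genes weighted to the same lengths, and grey bars all autosomal protein-coding genes. The Kcn share was the lowest of the 3 bars at each position, with 2.17%, 19.6% and 38.0%.

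The lower shares were seen in each list. After 30 cycles, 1 gene had a peak at the start site, 15 in the gene and 33 within 50 kb, and the shares of all genes were 11.4%, 22.7% and 52.3%. After 36 cycles, the numbers were 2, 10 and 24 genes, with shares of all genes of 6.29%, 15.6% and 37.9%. The ratios to genes of like length were 0.0903, 0.541 and 0.692 after 30 cycles and 0.320, 0.497 and 0.694 after 36 cycles. At the start site, the interval of the ratio after 36 cycles reached 1.12, so that in this list alone a difference was not detectable at the number of genes. Among peaks found in both lists, 1 Kcn gene had a peak at the start site (background 3.49%), 5 in the gene (background 11.4%) and 20 within 50 kb (background 28.9%). The ratios to genes of like length were then 0.291 (0.0515 to 1.58), 0.323 (0.139 to 0.718) and 0.760 (0.508 to 1.09), so that with these peaks a difference was detectable only in the gene.

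Distances from the start site to the nearest joined peak showed where the potassium channel genes differed from the rest. The median was 76.6 kb for the Kcn genes and 38.4 kb for all genes, and the lower quartile was 36.0 kb compared with 8.90 kb. More than 200 kb from any peak were 15 Kcn genes (16.3%, 10.1 to 25.2) and 15.3% of all genes, a difference that was not detectable. Widening the window of the start site to 5 kb brought the number of Kcn genes with a peak to 6, namely Kcng1, Kcnmb3, Kcnn3, Kcnn4, Kcnc2 and Kcnrg, while the background was 20.2%.

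**Figure D2:**
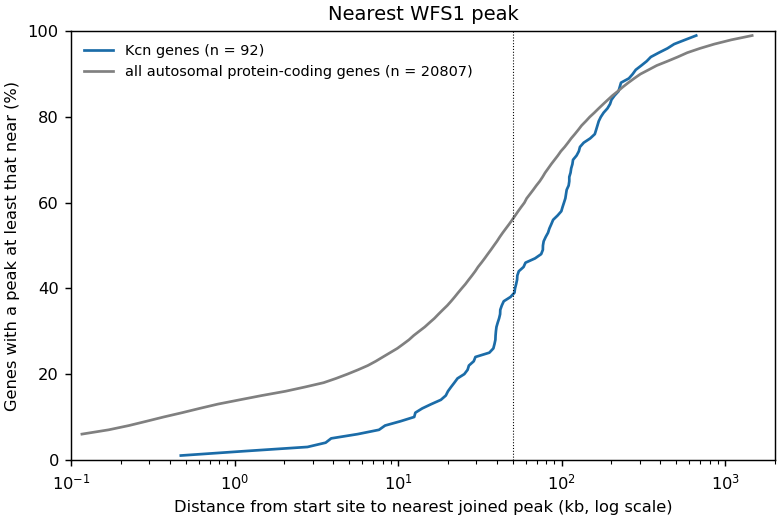
Cumulative share of genes (y axis, percent) against the distance from the start site to the nearest joined peak (x axis, kb, log scale, dotted line at 50 kb) for 92 Kcn genes (blue) and 20807 autosomal protein-coding genes (grey), drawn from percentiles 1 to 99 and from 0.1 kb on. The blue curve lies to the right of the grey curve up to about 200 kb, with medians of 76.6 and 38.4 kb.

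The number of peaks around the genes differed less. Within 500 kb of the start site, the Kcn genes had a median of 10 joined peaks (quartiles 4 and 15.2) and all genes 11.0 (6 and 19.0). Genes were divided into 3 classes by this number, which includes the peaks at the gene itself. In the class with up to 8 peaks, 10 of 38 Kcn genes (26.3%, 15.0 to 42.0) had a peak in the gene, compared with 30.5% of genes of like length in that class. In the class with 9 to 16 peaks, 4 of 33 (12.1%, 4.82 to 27.3) did, compared with 28.8%, and in the class with 17 or more, 4 of 21 (19.0%, 7.67 to 40.0), compared with 31.8%. Within 50 kb, the shares were 21.1% (11.1 to 36.3) against 31.5%, 42.4% (27.2 to 59.2) against 62.7% and 61.9% (40.9 to 79.2) against 78.4%. At both positions, a difference was detectable in the middle class, and the intervals of the other classes included the value of genes of like length.

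At start sites, base composition was considered next, since CpG-rich start sites carried more peaks. A start site was called CpG-rich when the 1000 bp around it had a GC content of at least 50% and an observed over expected CpG of at least 0.6. Of the 92 Kcn genes, 35 (38.0%, 28.8 to 48.3) were CpG-rich, compared with 45.7% of all genes, and the median GC content was 58.2% compared with 55.1%. None of the 35 CpG-rich Kcn start sites had a joined peak, and a count of 0 allows a share of up to 8.57%, whereas 23.0% of all CpG-rich start sites had one. Among CpG-poor start sites, the Kcn share was 3.51% (0.968 to 11.9) and that of all genes 6.02%. Weighted to the Kcn genes' CpG classes, 12.5% of all genes had a peak at the start site, against the observed 2.17%.

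The sequences below are the central 200 bases of 8 of the peaks: the start site peak of Kcnn4, peaks in genes of high rank for their length (Kcnmb3, Kcnk5, Kcnj12), the peak in Kcnc4, and peaks in 2 long genes. Apart from the first Kcnk5 peak, which was found in both lists, they were picked as examples that hold a searched motif, so they do not show how common motifs are. Of the 31 peaks in Kcn genes and the Kcnn4 start site peak, 12 of 32 held none, including the start site peak of Kcnc2. They were read from the GRCm38 reference on the strand of the gene, 5′ to 3′. Capitals mark TGACTCA (the site of AP-1 factors), CAGCTG (an E-box) and GGAATG (TEAD), on either strand. TGTGGTT or TGCGGTT (RUNX) was also searched. A match is a description and not a shown binding site.
Kcnn4, chr7:24369871-24370070: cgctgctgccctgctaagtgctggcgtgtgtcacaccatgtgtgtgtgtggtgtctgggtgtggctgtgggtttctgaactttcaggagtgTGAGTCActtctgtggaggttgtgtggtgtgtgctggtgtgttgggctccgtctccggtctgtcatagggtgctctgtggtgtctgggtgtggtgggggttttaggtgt
Kcnmb3, chr3:32486442-32486641: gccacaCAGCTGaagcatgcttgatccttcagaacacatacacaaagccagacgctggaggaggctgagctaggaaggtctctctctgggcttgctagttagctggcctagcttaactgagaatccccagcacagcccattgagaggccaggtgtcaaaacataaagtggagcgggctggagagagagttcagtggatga
Kcnk5, chr14:20162410-20162609: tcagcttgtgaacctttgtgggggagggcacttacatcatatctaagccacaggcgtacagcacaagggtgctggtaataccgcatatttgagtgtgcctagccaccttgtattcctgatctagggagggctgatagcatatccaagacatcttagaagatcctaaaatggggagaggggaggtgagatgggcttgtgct
Kcnk5, chr14:20155114-20155313: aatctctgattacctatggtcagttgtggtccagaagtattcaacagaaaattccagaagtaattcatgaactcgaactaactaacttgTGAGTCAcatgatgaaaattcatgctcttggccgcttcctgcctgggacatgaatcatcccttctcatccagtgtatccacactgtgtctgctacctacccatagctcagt
Kcnj12, chr11:61062765-61062964: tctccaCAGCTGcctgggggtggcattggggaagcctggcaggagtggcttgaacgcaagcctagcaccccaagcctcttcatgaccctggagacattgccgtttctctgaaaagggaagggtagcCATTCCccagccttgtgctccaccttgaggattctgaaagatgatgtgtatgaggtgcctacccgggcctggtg
Kcnc4, chr3:107446916-107447115: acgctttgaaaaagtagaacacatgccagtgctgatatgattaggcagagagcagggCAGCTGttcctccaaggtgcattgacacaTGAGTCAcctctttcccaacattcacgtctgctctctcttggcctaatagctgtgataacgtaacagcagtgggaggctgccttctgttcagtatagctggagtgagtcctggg
Kcnh7, chr2:62807504-62807703: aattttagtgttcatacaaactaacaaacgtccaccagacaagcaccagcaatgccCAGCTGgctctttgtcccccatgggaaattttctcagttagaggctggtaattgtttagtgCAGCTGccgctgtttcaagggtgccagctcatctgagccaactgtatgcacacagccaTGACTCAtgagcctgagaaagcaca
Kcnip1, chr11:33660510-33660709: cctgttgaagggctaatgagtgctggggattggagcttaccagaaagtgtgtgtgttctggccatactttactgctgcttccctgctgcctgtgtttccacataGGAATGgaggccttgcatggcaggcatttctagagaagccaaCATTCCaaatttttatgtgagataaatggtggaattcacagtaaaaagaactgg

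The peak nearest to any potassium channel start site was at Kcnn4, which encodes the intermediate-conductance calcium-activated channel found in lymphocytes, red cells and proliferating cells. Kcnn4 (ENSMUSG00000054342) lies on chromosome 7 from 24370263 to 24386690 on the forward strand. A joined peak of 416 bp, chr7:24369764-24370179, ended 84 bp upstream of the start site and was called after 30 and after 36 cycles. Its central 200 bases, printed first above, held 1 TGACTCA, found as TGAGTCA, and none of the other motifs. Kcnn4 had 5 joined peaks within 50 kb, of which 3 were found in both lists. A peak called after 30 cycles only lay 2.89 kb upstream, and a pair of peaks found in both lists lay 17.1 and 19.1 kb downstream, past the end of the gene and nearer to the start site of Smg9. No joined peak overlapped the gene itself.

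Kcnc2 was the other channel with a peak at the start site. It encodes Kv3.2, a voltage-gated channel of fast-spiking neurons, and extends over 196 kb of chromosome 10 from 112271121 to 112467024. The peak, chr10:112271626-112271999, was called after 36 cycles only, started 505 bp downstream of the start site in an exon with annotated UTR and had a GC content of 64.7%. It was the only peak in the gene, and its central 200 bases held none of the 4 motifs. Just outside the window of 1 kb, a peak in Kcnmb3 started 1.26 kb downstream of the start site.

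Of the 18 genes that held peaks, 11 held 1 peak and 7 held 2 or more. The share with 2 or more was 7.61% (3.73 to 14.9), and the interval included the 11.0% of all autosomal protein-coding genes. The 11.0% was not weighted to the lengths of the Kcn genes, which were longer. The 18 genes had a median length of 235 kb and the genes without a peak 21.6 kb. Among the 23 Kcn genes longer than 100 kb, 11 held a peak (47.8%, 29.2 to 67.0), compared with 62.1% of all genes longer than 100 kb, a difference that was not detectable at this number of genes. Among the 69 shorter genes, 7 did (10.1%, 5 to 19.5), compared with 20.9%. None of the 27 Kcn genes in the 4 shortest bins, up to 12.2 kb, held a peak, which allows a share of up to 11.1%, and the background there was 10.4%, so that a difference was not detectable. The 31 peaks lay in introns in 28 cases and overlapped exons with annotated UTR in 3 cases, in Kcnb2, Kcnc2 and Kcnv2. For 17 of them the nearest protein-coding start site was that of the Kcn gene, and for 14 that of another gene. This was not counted over all genes.

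**Figure D3:**
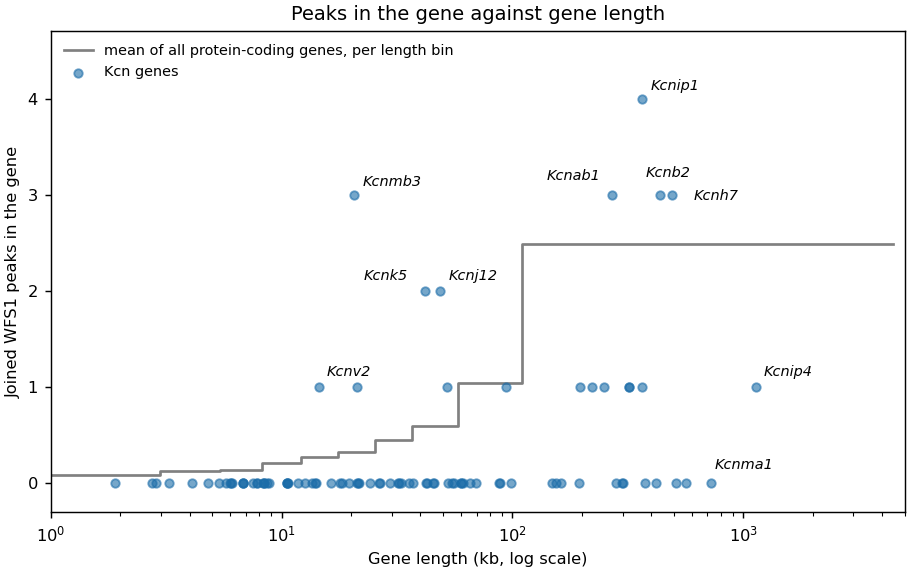
Joined WFS1 peaks in the gene (y axis) against gene length (x axis, kb, log scale). Each point is a Kcn gene, and the grey steps are the mean of all autosomal protein-coding genes in 10 length bins. Kcnmb3 held 3 peaks at 20.6 kb, where the mean of the bin was 0.325. In the longest bin the mean was 2.49, and most Kcn genes lay below it. The share of all genes below that mean was not counted.

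To see which channels stood out, each gene was ranked among autosomal protein-coding genes within 10% of its length. Kcnmb3, which encodes an auxiliary subunit of the large-conductance calcium-activated channel, ranked highest, at percentile 98.3 of 1135 genes. It was picked as the highest of 92 ranks, and the highest of so many is high by selection alone, so its percentile is a description. Kcnmb3 is found at chr3:32471588-32492231 on the reverse strand and is 20.6 kb long. Its 3 peaks came as 2 peaks after 30 cycles and 2 after 36 cycles, and 2.38% of the genes of like length held at least as many. The widest of them, chr3:32486245-32486840 (596 bp), was found in both lists, lay 5.39 kb downstream of the start site in an intron and held a CAGCTG. The 36-cycle list alone gave the peak at 1.26 kb and the 30-cycle list alone that at 10.6 kb, and neither held a motif in its central 200 bases. Upstream, a peak of 719 bp in both lists lay 4.18 kb from the start site. A further peak lay 16.7 kb upstream, 1.09 kb from the start site of Zfp639. Of the 5 peaks within 50 kb, 4 were nearest to the start site of Kcnmb3 itself.

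Kcnk5 and Kcnj12 followed. Kcnk5, a tandem-pore channel known from kidney epithelium, held 2 peaks in 41.8 kb of chromosome 14, and ranked at percentile 91.6, with at least as many peaks in 12.5% of 991 genes of like length. A peak of 921 bp found in both lists lay 18.8 kb from its start site. The other, called after 30 cycles only, lay 26.5 kb from it, nearer to the start site of Saysd1, and held a TGACTCA. Kcnj12, which encodes the inward rectifier Kir2.2 of heart and skeletal muscle, held 2 peaks in 48.6 kb of chromosome 11 and ranked at percentile 89.5 of 899 genes. They lay next to each other, 39.2 and 39.9 kb downstream of the start site. The first came from the 36-cycle list alone, and the second, 714 bp wide and from the 30-cycle list alone, held a CAGCTG and a GGAATG. Thus neither Kcnj12 peak was found in both lists.

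Among genes with a single peak, Kcnv2 and Kcnc4 ranked highest, at percentiles 87.5 and 86.1. Kcnv2, a silent subunit known from photoreceptors, had its peak in an exon with annotated UTR, 14.2 kb from the start site, and had 5 joined peaks within 50 kb, each nearest to its own start site. Of these 5 peaks, 1 was found in both lists and 4 after 30 cycles only. Kcnc4, which encodes Kv3.4, a channel of neurons and skeletal muscle, held a peak of 201 bp that was called after 36 cycles only and contained both a TGACTCA and a CAGCTG. Upstream of Kcnc4, 18.1 kb from its start site and within Slc6a17, lay a peak of 3267 bp found in both lists, which ranked 6 by width among the 22292 joined peaks.

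Apart from Kcnmb3, the genes with 3 or more peaks were long and did not stand out for their length. Kcnip1, whose product binds calcium and modifies Kv4 channels, held 4 peaks in 364 kb, 3 after 30 cycles and 2 after 36 cycles, and 32.6% of 135 genes of like length held at least as many. A group of 3 of its peaks lay 323, 332 and 337 kb from the start site, and that at 332 kb was found in both lists and held GGAATG on each strand. Kcnab1 (a beta subunit of Kv1 channels, 269 kb) and Kcnb2 (Kv2.2, 436 kb) each held 3 peaks, all called after 30 cycles only. Kcnh7, of the erg family (491 kb), held 1 peak after 30 cycles and 2 different peaks after 36 cycles. Of the 3, the peak at 377 kb held a TGACTCA and 2 copies of CAGCTG. The percentiles of these genes were 71.1 for Kcnip1, 64.7 for Kcnab1, 61.3 for Kcnb2 and 69.2 for Kcnh7. Many of these peaks were nearer to the start site of another gene. All Kcnip1 peaks were nearer to that of D130052B06Rik, and all Kcnb2 peaks to that of Terf1. The Kcnab1 peaks at 188 and 265 kb were nearer to Ssr3, and the Kcnh7 peaks at 377 and 458 kb to Gca.

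**Figure D4:**
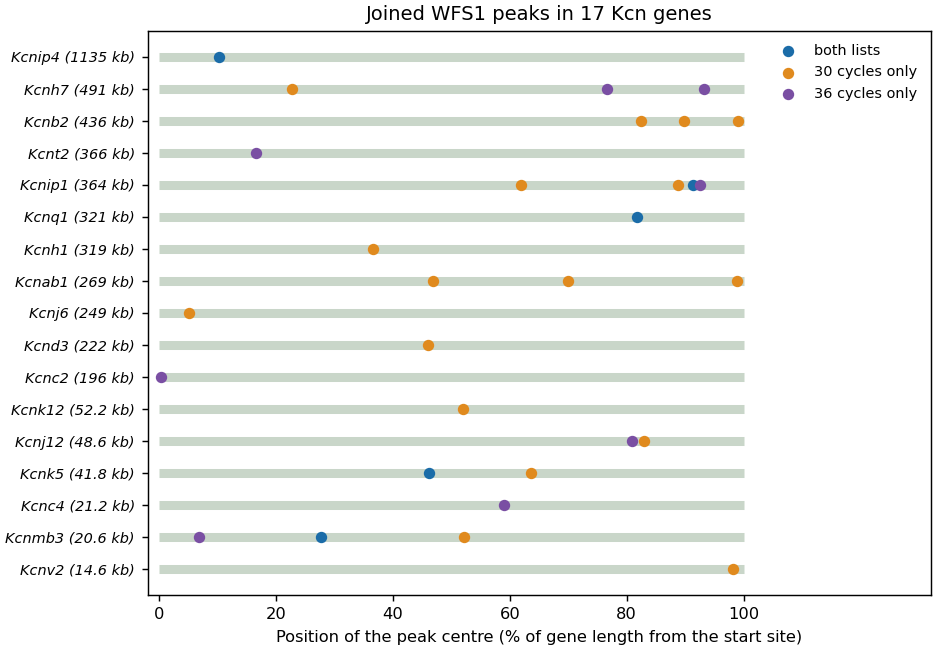
Position of the centre of each of 30 joined peaks along 17 Kcn genes that held one (x axis, percent of gene length from the start site), ordered by length. Blue points were found in both lists, orange after 30 cycles only and purple after 36 cycles only, and 19 of the 30 lie past the middle of the gene.

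Along the genes, 20 of the 31 peaks (64.5%, 46.9 to 78.9) were centred past the middle, compared with 37.3% (36.4 to 38.2) of 11920 pairs of peak and gene among all protein-coding genes. Without the peaks at start sites, the shares were 66.7% (48.8 to 80.8) and 45.9% (44.9 to 46.9). In genes over 100 kb, they were 63.2% (41.0 to 80.9) and 47.7% (46.4 to 49.1), and here the interval of the Kcn share included the value of all genes. Several of these peaks share a gene, so they are not independent.

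The longest potassium channel genes without any peak in the gene or within 50 kb of the start site were Kcnma1, Kcnd2, Kcnn2, Kcnh8 and Kcnq3. Kcnma1, the pore of the large-conductance calcium-activated channel, extends over 725 kb, and its start site was 199 kb from the nearest peak. Among 33 genes of like length, the median was 2.00 peaks and 33.3% held none. Kcnd2 (Kv4.2, 514 kb) was 636 kb from the nearest peak, Kcnn2 (a small-conductance calcium-activated channel, 417 kb) 552 kb, Kcnh8 (376 kb) 936 kb and Kcnq3 (a subunit of the neuronal M channel, 300 kb) 221 kb. Between 31.7% and 37.6% of the genes of like length also held no peak, so that the absence from a single gene was common.

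By family, peaks in the gene were found in 9 of 39 voltage-gated genes (23.1%, 12.6 to 38.3), 4 of 16 auxiliary genes (25%, 10.2 to 49.5), 2 of 15 inward rectifiers (13.3%, 3.74 to 37.9), 2 of 14 tandem-pore genes (14.3%, 4.01 to 39.9) and 1 of 8 calcium- or sodium-activated genes (12.5%, 2.24 to 47.1). Within 50 kb of the start site, the shares were 38.5% (24.9 to 54.1), 31.2% (14.2 to 55.6), 33.3% (15.2 to 58.3), 50% (26.8 to 73.2) and 37.5% (13.7 to 69.4). In all autosomal protein-coding genes, the shares were 25.6% in the gene and 56.1% within 50 kb. Every family's interval in the gene included 25.6%, and within 50 kb those of the voltage-gated and auxiliary genes lay below 56.1%. For genes of like length within 50 kb, the value was 55.7% for the voltage-gated genes, still above their interval, and 55.2% for the auxiliary genes, inside theirs. The families' intervals overlap widely, and no difference between families was detectable at these numbers. Median distances to the nearest peak ranged from 45.7 kb for the tandem-pore genes to 114 kb for the auxiliary genes.

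By the tissue in which they are best known, 3 of 9 genes of a list for skeletal muscle or myoblasts held a peak (33.3%, 12.1 to 64.6), namely Kcnc4, Kcnh1 and Kcnj12, and Kcnn4 of the same list had its peak at the start site. Kcnh1, the ether-a-go-go channel, had a single peak, called after 30 cycles only, 117 kb downstream of its start site. No peak lay in or within 50 kb of Kcnj2 (Kir2.1), Kcnj11 (the pore of the ATP-sensitive channel), Kcnma1 or Kcne3. Of 13 cardiac genes, 2 held a peak (15.4%, 4.33 to 42.2), namely Kcnd3, which carries transient outward current, and Kcnq1, the pore of the slow delayed rectifier. The Kcnq1 peak, 262 kb downstream of the start site, was found in both lists and contained TGTGGTT. It was nearer to the start site of Cdkn1c, at 92.5 kb. Kcne1, the partner of Kcnq1, had 3 peaks 39.2 to 42.7 kb upstream of its start site, all inside Rcan1. Of 18 neuronal genes, 7 held a peak (38.9%, 20.3 to 61.4), and their median length was 77.0 kb, compared with 21.2 kb for the muscle list and 24.2 kb for the cardiac list. In the gene, the intervals of the 3 lists overlapped, and each included the 25.6% of all genes. Each also included the share of genes of like length, which was 33.6% for the muscle, 28.7% for the cardiac and 42.1% for the neuronal list. Within 50 kb of the start site, the shares were 44.4% (18.9 to 73.3), 23.1% (8.18 to 50.3) and 38.9% (20.3 to 61.4). All genes had 56.1% there, and genes of like length 55.1%, 54.6% and 55.0%. Only the cardiac interval, from 3 of 13 genes, lay below both values.

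Of the peaks within 50 kb of a potassium channel start site, some lay nearer to another gene. In all there were 72 pairs of gene and peak, formed by 71 peaks, since a peak of 484 bp lay between Kcna3 and Kcna2. For 38 pairs, the Kcn gene had the nearest protein-coding start site, and for 34 another gene did. For 9 pairs, the peak lay within 1 kb of the start site of another protein-coding gene. Counting only peaks nearest to their own start site, 21 Kcn genes had a peak within 50 kb, against a background of 32.5%. For 14 genes, all peaks within 50 kb were nearer to another gene. Pairs nearer to another gene were not counted over all genes, so these numbers do not set the Kcn genes apart. Of the 71 peaks, 15.5% (8.88 to 25.7) lay within 1 kb of any autosomal protein-coding start site. Among the 13808 peaks within 50 kb of any such start site, the share was 22.1%, inside this interval. Kcnk4, the mechanosensitive channel TRAAK, and Kcnab3, a beta subunit of Kv1 channels, each had 5 peaks within 50 kb, and none was nearest to them. The peaks around Kcnk4 overlapped Prdx5, Bad, Plcb3 or Ppp1r14b, and those around Kcnab3 were nearest to Rnf227 or Chd3.

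The single peak within 50 kb of Kcnc1, which encodes Kv3.1, was chr7:46353048-46353380, 43.1 kb upstream of Kcnc1 and 23.1 kb from the start site of Myod1, its neighbour. This peak was called after 30 cycles only and contained a CAGCTG. The study reports that the closest WFS1 peak upstream of Myod1 covers most of the core enhancer of that gene. Closer to their own start sites were the upstream peaks of Kcnn3 (a small-conductance calcium-activated channel), 3.35 kb away and found in both lists, of Kcng1, 3.73 kb away, and of Kcnrg, 3995 bp away, the last pair after 30 cycles only. The Kcnrg peak lay within Trim13, and 75.4% of the bases of the Kcnn3 peak are masked as repeats in the reference.

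**Figure D5:**
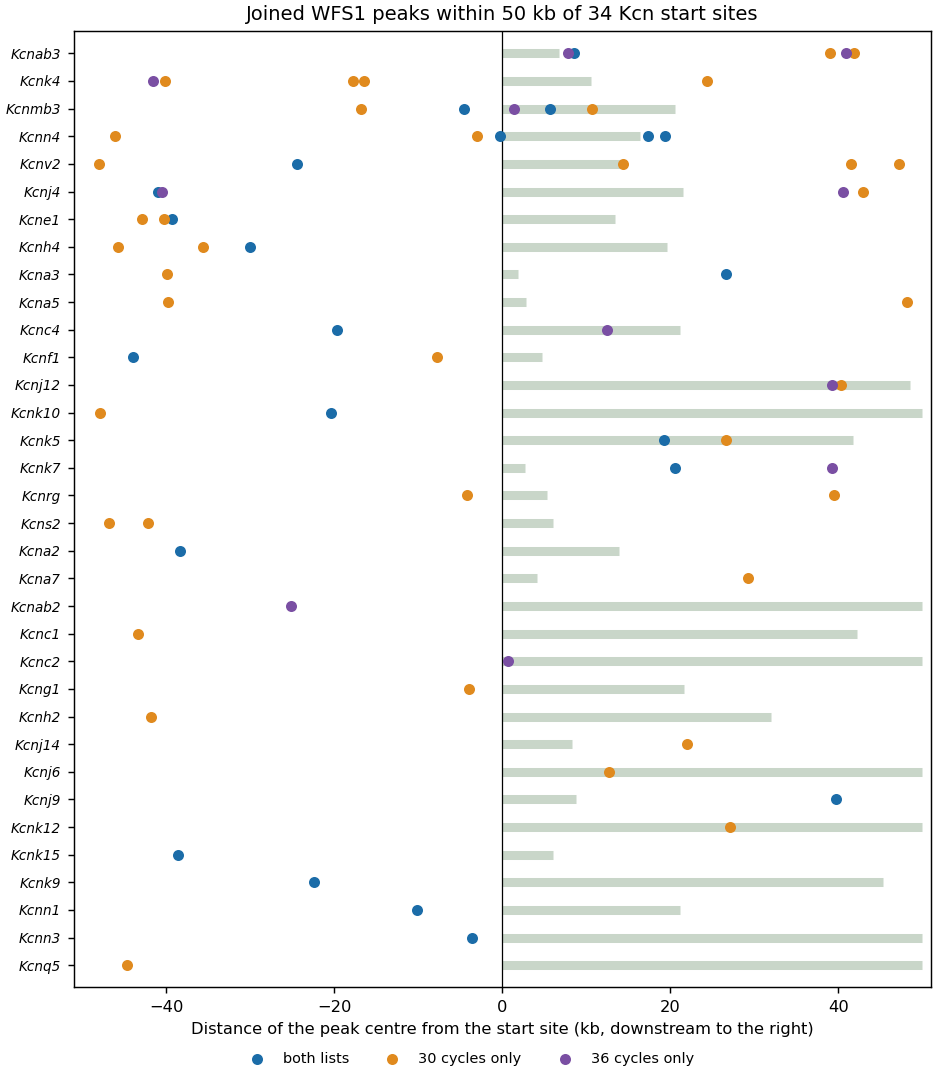
Joined peaks within 50 kb of the start site of 34 Kcn genes that had one (x axis, distance of the peak centre in kb, downstream to the right), with the gene drawn as a green bar up to 50 kb. Blue points were found in both lists, orange after 30 cycles only and purple after 36 cycles only. Only Kcnn4 and Kcnc2 have a point within 1 kb of the start site, and 59 of the 71 points lie outside the gene.

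The peaks in potassium channel genes had a median width of 312 bp, compared with 377 bp for the 11327 peaks in autosomal protein-coding genes. Of the 31 peaks, 5 (16.1%, 7.09 to 32.6) were found in both lists, compared with 33.5% (32.6 to 34.3). Away from start sites, it was 5 of 30 (16.7%, 7.34 to 33.6), compared with 36.0% (35 to 37.0). Of the other peaks, 18 came from the 30-cycle list alone and 8 from the 36-cycle list alone. The 5 peaks lay in 5 genes, Kcnmb3, Kcnip4, Kcnq1, Kcnip1 and Kcnk5. The 71 peaks within 50 kb of Kcn start sites had a median width of 350 bp, and 31.0% (21.4 to 42.5) were found in both lists.

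In base composition and motifs, no difference between peaks in Kcn genes and other peaks in genes was detectable. Their median GC content was 47.0%, compared with 48.5%. In the central 200 bases, TGACTCA was found in 6 of 31 peaks (19.4%, 9.19 to 36.3), compared with 16.6% of peaks in protein-coding genes, and CAGCTG in 5 (16.1%, 7.09 to 32.6), compared with 18.1%. TGTGGTT or TGCGGTT was found in 6 (19.4%, 9.19 to 36.3), compared with 11.5%, and GGAATG in 6 (19.4%, 9.19 to 36.3), compared with 15.3%. Each interval included the value of all genes. Among the 71 peaks within 50 kb of Kcn start sites, CAGCTG was found in 21 (29.6%, 20.2 to 41.0), compared with 17.3% (16.6 to 17.9) of the 13808 peaks within 50 kb of any autosomal protein-coding start site. This was the only one of 8 motif comparisons whose interval did not include the value of all genes, and no test was made. For Kcn promoters, of which 68 were matched in RefSeq (GRCm38, around the start site), 16 held CAGCTG (23.5%, 15.0 to 34.9), compared with 16.1% of 27025 promoters, and 1 held TGACTCA (1.47%, 0.260 to 7.87), compared with 5.17%. TGTGGTT or TGCGGTT was found in 4 (5.88%, 2.31 to 14.2), compared with 6.89%, and GGAATG in 12 (17.6%, 10.4 to 28.4), compared with 14.6%. Each of these intervals included the value of all promoters. A gene can have several promoters, and those of Kcnc2 partly overlap. Promoters are therefore not independent, which the intervals do not cover.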

How the data were processed

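WFS1 ChIP-seq peak lists of 2 libraries of wildtype C2C12 cells were used, with 18283 peaks after 30 and 12674 peaks after 36 sonication cycles. Per the study's methods, NextGenMap aligned the reads to GRCm38, poorly mapped reads were discarded using samtools, and the authors ran MACS2 on each library separately. The control used in peak calling is not given in the sources used here. The deposited lists hold positions only, so no value is normalized for depth.

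Lists were joined as bedtools merge does, giving 22292 peaks, of which 22020 were autosomal. Any base of a peak counted. Gene models were from GENCODE mouse release 21 (Ensembl 96; the study used a later one), and the 5′ end of each gene served as its start site. Motifs were searched in the central 200 bp on both strands of the RefSeq GRCm38 sequence. Length standardization used 10 bins of equal gene number. Counting and joining were checked against bedtools and on simulated data.

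Genes named are those with a start site peak, the 8 with the most peaks in the gene, the 8 with the highest percentile among genes within 10% of their length and at least 2 peaks (7 qualified), the 5 longest without a peak, the 5 with the most peaks within 50 kb, and genes of the hand-written lists. Other names (Kcng1, Kcnrg, Kcna3 and neighbouring genes) were chosen after their values were seen. The values of 1 gene under this rule are not reported here, and it is counted but not drawn in the plots by gene. Members and lists were chosen with earlier results of these data known. Alternatives were each list alone, peaks of both lists, wide peaks, peak centres, other windows, other bins and other gene sets. Omitting Kcnmb3 was added after seeing the data. Software was bedtools 2.31.1, pysam 0.24.0, pandas 2.3.3, numpy 2.4.6, scipy 1.17.1 and matplotlib 3.10.9 under python 3.11.15.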

Additional observations from a re-analysis of the deposited data

How the results depend on the processing

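No paired analysis was possible because there was 1 library per condition and nothing was tested. Without scores in the lists, peaks could not be filtered more strictly other than by width. The ratio of Kcn genes to genes of like length ran from 0.0903 to 0.320 at the start site, from 0.497 to 0.764 in the gene and from 0.633 to 0.694 within 50 kb with each list alone, other bins, no standardization, named genes only or without Kcnmb3, within the counting error of the main values. With peaks of both lists, it was 0.323 in the gene, below the interval of the main value, and 0.760 within 50 kb. Of 46 alternative values, 32 stayed within that error or, for counts, within 1.5 times, and 14 moved by more. Each of the 14 uses fewer peaks or another window by construction. With a peak at the start site, 1 gene was found in the 30-cycle list alone, 1 among peaks of both lists, 1 among peaks at least as wide as the median and 1 within 0.5 kb (background 11.2%), and 6 were found within 5 kb (background 20.2%). With a peak in the gene, 10 genes were found in the 36-cycle list alone, 5 among peaks of both lists and 7 among wide peaks, and the number of peaks in Kcn genes was 13 in the 36-cycle list alone and 8 among wide peaks. Wide peaks were not counted over all genes, so their numbers say nothing about the Kcn genes in particular. Within 50 kb, 20 genes had a peak of both lists and 21 a peak nearest to their own start site. Within 20 kb there were 15 genes (background 36.1%) and within 100 kb 53 (background 72.2%). Without Kcnmb3, which was omitted after seeing the data, the ratios were 0.150, 0.561 and 0.671, and 28 peaks in Kcn genes were left.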

Other observations

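Other cation channel genes, taken by symbol as Hcn, Scn and Cacn, were counted in the same way. Of these 43 autosomal genes, with a median length of 98.9 kb, 15 held a joined peak (34.9%, 22.4 to 49.8), 17 had one within 50 kb of the start (39.5%, 26.4 to 54.4) and 1 had a peak at the start site (2.33%, 0.412 to 12.1). In all autosomal protein-coding genes, these shares were 25.6%, 56.1% and 13.8%, and in genes of like length 46.2%, 56.2% and 16.2%. The interval in the gene included both values, and the other 2 intervals lay below both. The last was Cacng1, which encodes the gamma subunit of the skeletal muscle calcium channel, with a peak 69 bp from its start site. Cacng4 held 4 joined peaks and 4 in each list, Scn9a held 4 and Cacna2d1 held 6. Scn4a, the skeletal muscle sodium channel, held 1 peak, after 30 cycles only.

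Among 9 genes for partners of potassium channels, only Dpp6, which encodes an auxiliary protein of Kv4 channels, held a peak, 1 in 910 kb. Abcc8 and Abcc9, the sulfonylurea receptors that join Kcnj11 and Kcnj8 in ATP-sensitive channels, held none and had none within 50 kb of the start site.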
